A study of Mus musculus with 12 samples.

Results

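The genes described here are 9 receptors that macrophages use to sense chemokines, complement fragments and formylated peptides: *Ccr1*, *Ccr2*, *Cx3cr1*, *Cxcr4*, *Ccrl2*, *C5ar1*, *C3ar1*, *Fpr1* and *Fpr2*. They were chosen by symbol, matched to Ensembl identifiers with GENCODE M21, and are 9 of the 53379 genes in the count table. All 9 passed the filter on low counts and were among the 12386 genes tested. mRNA was measured in bone marrow-derived macrophages (BMDMs), which were grown from bone marrow of 4 C57BL/6J mice in medium conditioned by L929 cells, a source of macrophage growth factor. Part of the cells from each animal stayed untreated, and the rest received fenoterol, an agonist specific for the β2-adrenergic receptor (B2AR), at 1 μM for 1 h or for 4 h. No genetic alteration is given for the animals, and all cultures, untreated ones included, were grown in the same way. The 3 groups of 4 libraries asked how B2AR activation changes gene expression in macrophages that have met no inflammatory stimulus.

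Chemokine receptors are G protein-coupled receptors that couple mainly to inhibitory G proteins and steer migrating leukocytes toward the source of their ligand. The receptors for the anaphylatoxins C5a and C3a and for formylated peptides belong to the same wide class and direct phagocytes to sites of complement activation or of damaged and bacterial cells. Activated receptors are phosphorylated by G protein-coupled receptor kinases, bound by arrestins and internalized, and RGS proteins shorten the signal of their G proteins. B2AR itself couples to the stimulatory G protein, which raises cyclic AMP, and cyclic AMP in turn activates transcription factors of the CREB family.

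Total counts were 14580533 to 24153284 per library, and replicates of a group differed by more than counting error, with a chi-square per degree of freedom of 9.71 to 20.0. The identity of the cells was checked against marker lists. The 7 macrophage markers held 3.19% to 3.98% of a library's counts, and 10 neutrophil and granule markers took 0.00946% to 0.0186%. Most of the macrophage sum came from *Lyz2*, at 488584 ± 18321 normalized counts (SD, n = 4) in untreated BMDMs, where the 7 summed to 734486 to 772896. All 6 lymphocyte markers in untreated BMDMs, and 5 of 6 after fenoterol, had no more than 3 normalized counts in any library of the group. Of the 10 neutrophil and granule markers, only 1, *Ly6g*, which defines neutrophils, stayed at 3 or fewer in each group. The 9 markers of this list other than *Csf3r* summed to 596 to 1217 normalized counts in untreated BMDMs, so granule gene transcripts were present. The 6 stromal and erythroid markers summed to 412 to 1310 normalized counts in untreated BMDMs. The response to fenoterol was seen at 1 h in *Nr4a1*, an immediate early gene, with a log2 fold change of 5.16 ± 0.18 (SE) and an adjusted p of 3.63e-11. In bulk RNA, fewer cells of a type and less RNA per cell cannot be told apart, and receptor protein at the cell surface was not measured.

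Promoter windows of the receptor genes were searched for motifs of factors that respond to cyclic AMP or belong to the immediate early genes. The windows run from 250 bases before to 50 bases after each RefSeq start on GRCm38.p6. On both strands they were searched for the cyclic AMP response element (CRE, TGACGTCA), its core TGACG, which any CRE also holds, the AP-1 site TGANTCA and the NBRE of NR4A factors, AAAGGTCA. Of the 9 genes, 2 held a match. The first of the 3 windows of *Ccrl2* held the CRE core 31 bases after the start, inside the stretch chr9:111057471-111057500 on the minus strand. The same site lay 218 and 244 bases before the starts of the other 2 windows, so its distance depends on the start used. The window of *C3ar1* held the AP-1 letters 22 bases before the start, inside chr6:122856158-122856277 on the minus strand. Capitals mark the matches in the 2 stretches, which are written 5′ to 3′ on the strand of the gene:
Ccrl2: ctctttgctttcTGACGtaggaatgctcac
C3ar1: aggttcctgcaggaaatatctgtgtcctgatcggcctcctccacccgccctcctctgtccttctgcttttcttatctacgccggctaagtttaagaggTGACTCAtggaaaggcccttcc

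Among all 32851 promoter windows of this table, 20.8% held the CRE core and 7.81% held the AP-1 letters. The full CRE stood in 1.79% and the NBRE in 1.51% of all windows, and in none of the windows of the 9 receptor genes. These are letter matches in a fixed window and do not show that a factor is bound there.

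After 1 h of fenoterol, 2 of the 9 receptors had risen, 3 had fallen, and 4 did not pass the threshold of an adjusted p under 0.05 (edgeR's quasi-likelihood test, Benjamini-Hochberg over all genes tested). Among all genes tested, 10.0% rose, 10.1% fell and 20.1% were called in either direction at this time. *Ccrl2*, an atypical receptor, and *C5ar1*, a receptor for C5a, had risen, whereas *Ccr2*, *Cxcr4* and *C3ar1* had fallen. The median log2 fold change of the 9 receptors was -0.54, beside -0.005 over all genes tested. This median is the value of *Fpr1*, which did not pass.

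After 4 h, 3 receptors were higher than in untreated BMDMs, 4 were lower and 2 did not pass. The background at 4 h was 19.7% of all genes higher, 20.4% lower and 40.0% in either direction. *Ccr1*, *Ccrl2* and *C5ar1* were the receptors that were higher, and *Ccr2*, *Cx3cr1*, *Cxcr4* and *C3ar1* those that were lower. The median of the 9 receptors was -0.11, beside 0.004 over all genes tested. This median is the value of *Fpr2*, which did not pass and was 0.23 without the untreated library of mouse 3.

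Between the time points, 2 receptors were higher at 4 h than at 1 h (*Ccr1* and *C5ar1*), 3 were lower (*Ccr2*, *Cx3cr1* and *Ccrl2*) and 4 did not pass. Of all genes tested, 18.7% were higher, 19.8% lower and 38.5% called in either direction. The 3 comparisons share libraries, so their counts are not independent of each other. No time is given for the untreated libraries, so fenoterol and time in culture cannot be told apart.

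**Figure D1:**
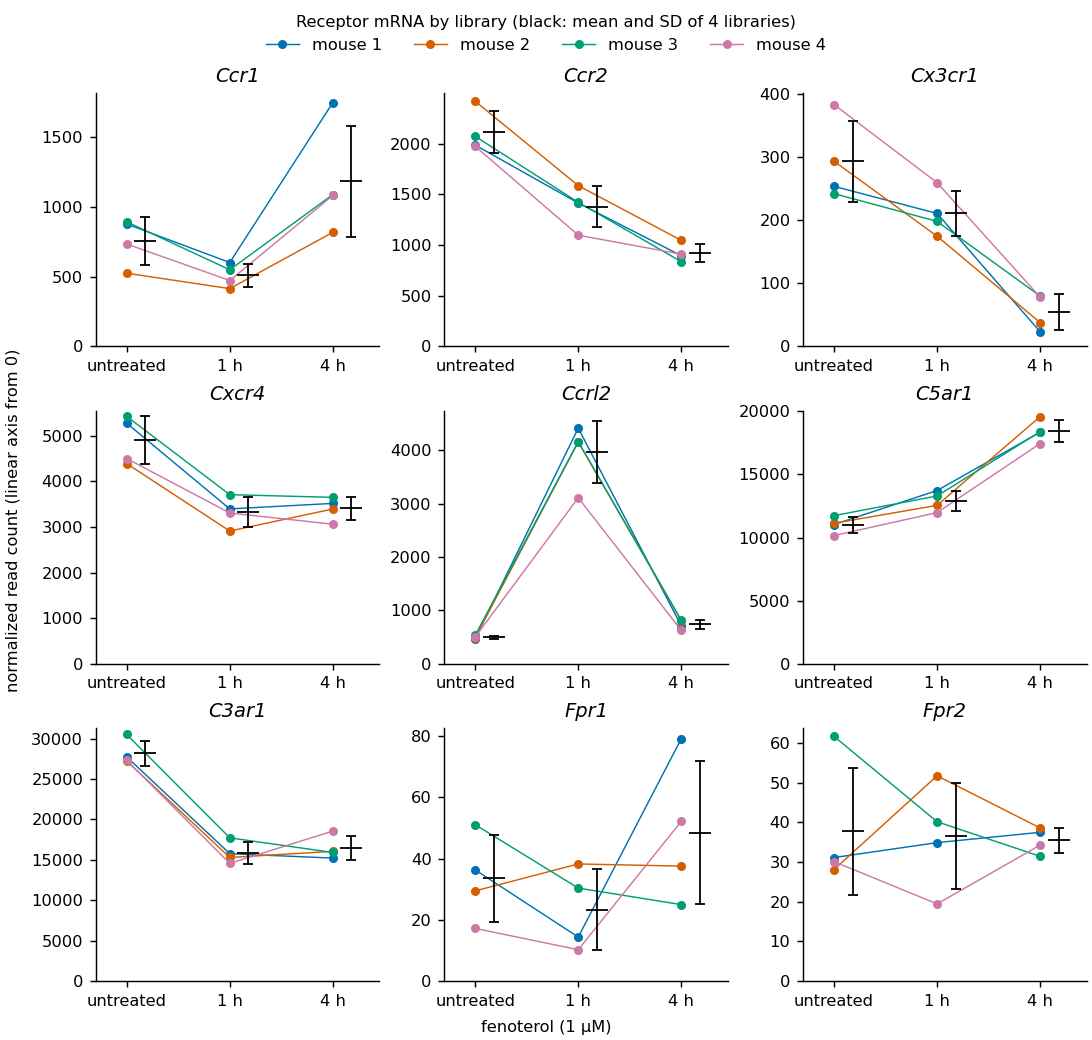
Normalized read count (linear axis from 0) of each receptor gene in the 12 libraries, by treatment, with lines joining the libraries of a mouse and black marks giving the mean and SD of 4 libraries. *Ccrl2* peaked at 1 h in all 4 mice, *Ccr2* fell step by step, and *Cx3cr1* fell mostly after 1 h.

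The plot of counts by library shows several courses among the receptors that passed the threshold. *Ccrl2* rose at 1 h and came most of the way back by 4 h. *C5ar1* rose at both steps and *Ccr2* fell at both. *Cxcr4* and *C3ar1* fell at 1 h, and their fenoterol groups overlapped with each other. *Ccr1* and *Cx3cr1* made their larger step between 1 h and 4 h.

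Ccrl2 is an atypical receptor that binds the chemoattractant chemerin without known G protein signalling and presents it to neighbouring cells. The gene lies at chr9:111054486-111057519 on the minus strand of GRCm38. Its normalized count in mice 1 to 4 was 468, 489, 533 and 498 in untreated BMDMs. After 1 h it was 4414, 4156, 4160 and 3110. After 4 h it was 708, 808, 810 and 623. The 3 groups did not overlap, the 1 h libraries lay far above all others, and the library of mouse 4 was the lowest at both times of fenoterol.

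Means ± SD (n = 4) of *Ccrl2* were 497 ± 27.1, 3960 ± 580 and 738 ± 89.8. The rise at 1 h was 7.97-fold, a log2 fold change of 2.99 ± 0.11 (SE), with an adjusted p of 7.10e-11. At 4 h the gene was still 1.48-fold above untreated BMDMs (0.57 ± 0.11, adjusted p = 0.000811). Between 1 h and 4 h it fell 5.37-fold, a log2 fold change of -2.43 ± 0.11 (adjusted p = 7.84e-10). *Rarres2*, which encodes chemerin, had at most 2 counts in any library and was not tested. The promoter stretch with the CRE core printed above belongs to *Ccrl2*, and 20.8% of all promoter windows held this core.

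Of the 4 typical chemokine receptors, 2 passed the threshold as lower at 1 h, *Ccr2* and *Cxcr4*, beside 10.1% of all genes tested. The other 2, *Ccr1* and *Cx3cr1*, did not pass at 1 h. At 4 h 3 were lower and 1, *Ccr1*, was higher, beside 20.4% lower and 19.7% higher among all genes. These 4 are part of the 9 receptors counted above. Ccr2 is the receptor of Ccl2 and its relatives and brings inflammatory monocytes out of the bone marrow and into tissue. The gene is at chr9:124101950-124113557 on the plus strand. Normalized counts of *Ccr2* in mice 1 to 4 were 1986, 2418, 2072 and 1974 in untreated BMDMs. They were 1414, 1585, 1421 and 1096 after 1 h, and 894, 1045, 835 and 909 after 4 h. Each group lay wholly below the one before it, and mouse 2 had the highest value in all 3.

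The means ± SD (n = 4) were 2113 ± 208, 1379 ± 204 and 921 ± 88.8. The log2 fold change of *Ccr2* was -0.61 ± 0.10 at 1 h (adjusted p = 0.00055) and -1.20 ± 0.11 at 4 h, where its level was 2.29-fold lower (adjusted p = 4.03e-07). The step between the time points was -0.58 ± 0.10 (adjusted p = 0.000511). Stretches of 50 bases shared with other genes make up 1.91% of its exons, so few reads could be assigned to the wrong gene.

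Among the ligands of Ccr2, *Ccl2* was 0.89 ± 0.27 higher on the log2 scale at 4 h (adjusted p = 0.0168), with normalized counts of 84.1 ± 24.0 in untreated BMDMs and 157 ± 52.2 (SD, n = 4). Leaving out mouse 2 of the untreated libraries, or mouse 1 or 3 of the 4 h libraries, ended this call, with adjusted p-values of 0.0516, 0.0525 and 0.0586. *Ccl7* stood at 0.91 ± 0.37 (adjusted p = 0.0665), and passed with the mouse as a block (adjusted p = 0.00267), with DESeq2 (0.0419) and with no filter on low counts (0.0349). Without the 4 h library of mouse 2 the difference of *Ccl7* was 1.18 (adjusted p = 0.00817), and leaving out each library in turn gave 0.68 to 1.18. *Ccl12* fell by 2.52 ± 0.49 at 4 h (adjusted p = 0.000824), at a mean of 25.3 normalized counts in untreated BMDMs and 4.20 after 4 h. Without the 4 h library of mouse 3 its log2 fold change was -3.25 (adjusted p = 0.000268).

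Cx3cr1 is the receptor of the membrane-bound chemokine fractalkine and marks patrolling monocytes and many resident macrophages. The gene spans chr9:119901616-120069879 on the minus strand. In mice 1 to 4, *Cx3cr1* had 253, 293, 242 and 383 normalized counts in untreated BMDMs. The values were 210, 174, 198 and 259 after 1 h, and 22.9, 37.5, 79.5 and 77.9 after 4 h. At 1 h each mouse had less than when untreated but the groups overlapped, while all 4 h libraries lay below all others.

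The mean ± SD (n = 4) of *Cx3cr1* fell from 293 ± 63.9 to 54.5 ± 28.6 at 4 h. This was a 5.26-fold decrease, or -2.40 ± 0.29 on the log2 scale (adjusted p = 1.12e-05). At 1 h the mean was 211 ± 35.8, and the difference of -0.47 ± 0.26 did not pass (adjusted p = 0.251). With each library left out in turn, this 1 h difference lay between -0.59 and -0.31. From 1 h to 4 h the gene fell by 1.92 ± 0.29 (adjusted p = 0.000119).

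*Cx3cl1*, the gene of fractalkine, rose while its receptor fell. It had 65.6 ± 3.59 normalized counts (SD, n = 4) in untreated BMDMs, 126 ± 3.30 after 1 h and 348 ± 49.0 after 4 h. The groups did not overlap. Its log2 fold change was 0.94 ± 0.12 at 1 h (adjusted p = 4.31e-05) and 2.40 ± 0.12 at 4 h (adjusted p = 8.57e-10).

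Cxcr4 is the receptor of Cxcl12 and holds leukocytes in the bone marrow. The gene is at chr1:128588199-128592293 on the minus strand. *Cxcr4* had 5277, 4391, 5427 and 4502 normalized counts in untreated BMDMs of mice 1 to 4. After 1 h it had 3397, 2911, 3709 and 3307, and after 4 h 3517, 3395, 3650 and 3061. Every fenoterol library lay below every untreated one, and the 2 fenoterol groups overlapped throughout.

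Means ± SD (n = 4) were 4899 ± 528, 3331 ± 329 and 3406 ± 252. The log2 fold change of *Cxcr4* was -0.56 ± 0.09 at 1 h (adjusted p = 0.000276) and -0.53 ± 0.09 at 4 h (adjusted p = 0.000199). The difference between the time points was 0.03 ± 0.09 (adjusted p = 0.813), higher in 2 mice and lower in 2. The ligand gene *Cxcl12* was at 14.0 to 37.1 normalized counts in all libraries, with differences of 0.14 ± 0.33 at 1 h (adjusted p = 0.832) and -0.11 ± 0.33 at 4 h (adjusted p = 0.823).

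Ccr1 binds several inflammatory CC chemokines, among them those encoded by *Ccl3*, *Ccl5*, *Ccl6* and *Ccl9*. The gene is at chr9:123962124-123968692 on the minus strand. *Ccr1* had 878, 525, 893 and 735 normalized counts in untreated BMDMs of mice 1 to 4. It had 602, 414, 550 and 472 after 1 h, and 1750, 819, 1089 and 1083 after 4 h. Each mouse had its lowest value at 1 h and its highest at 4 h. The untreated group overlapped with both others, as mouse 2 was the lowest in all 3 groups. The highest value of all was that of mouse 1 at 4 h.

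The means ± SD (n = 4) were 758 ± 171, 509 ± 82.9 and 1186 ± 397. The difference at 1 h was -0.58 ± 0.21 on the log2 scale (adjusted p = 0.0755), and it passed the threshold with the mouse as a block (-0.57, adjusted p = 0.000233). At 4 h *Ccr1* was higher by 0.64 ± 0.21 (adjusted p = 0.0237). This call was lost without the 4 h library of mouse 1 (0.39, adjusted p = 0.0895), without the untreated library of mouse 2 (0.50, adjusted p = 0.0714) and without that of mouse 4 (0.61, adjusted p = 0.0578). From 1 h to 4 h the gene rose 2.32-fold, by 1.22 ± 0.21 (adjusted p = 0.000398), and these 2 groups did not overlap.

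**Figure D2:**
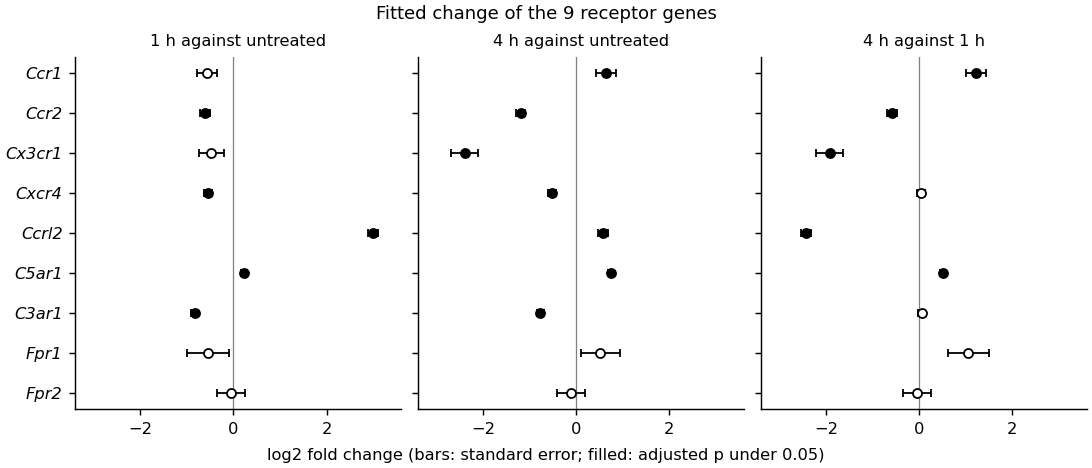
Fitted log2 fold change of the 9 receptor genes in the 3 comparisons, with bars for the standard error and filled points for an adjusted p under 0.05. *Ccrl2* at 1 h (2.99) and *Cx3cr1* at 4 h (-2.40) lie farthest from 0 among comparisons with untreated BMDMs, and *Fpr1* and *Fpr2* have wide errors.

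The receptors of the complement fragments moved in opposite directions. C5ar1 binds C5a, a strong attractant for neutrophils and macrophages, and C3ar1 binds C3a. *C5ar1* is at chr7:16246743-16259540 and *C3ar1* at chr6:122847138-122856161, both on the minus strand.

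*C5ar1* had 11031, 11132, 11733 and 10159 normalized counts in untreated BMDMs of mice 1 to 4. After 1 h it had 13722, 12548, 13294 and 11974. After 4 h it had 18346, 19584, 18389 and 17448. The 3 groups did not overlap, although the lowest 1 h library stood just above the highest untreated one.

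The means ± SD (n = 4) were 11014 ± 649, 12884 ± 777 and 18442 ± 877. *C5ar1* rose by 0.23 ± 0.06 on the log2 scale at 1 h (adjusted p = 0.0143), a call that was lost when libraries were scaled by their size alone (0.16, adjusted p = 0.0592). At 4 h it was 1.67-fold higher (0.74 ± 0.06, adjusted p = 1.66e-07), and the step from 1 h was 0.52 ± 0.06 (adjusted p = 9.85e-06). Of the 8 neutrophil markers tested, 0 rose at either time by edgeR, DESeq2 or limma-voom, and 0 were higher at an unadjusted p under 0.05, while 1 of them, *Csf3r*, which macrophages also express, fell at 4 h (-0.86 ± 0.10, adjusted p = 1.22e-05). Among all genes tested, 10.0% rose at 1 h, and 19.7% were higher and 20.4% lower at 4 h. The summed level of the neutrophil list was 2916 to 3653 normalized counts in untreated BMDMs, 2796 to 3637 after 1 h and 1855 to 2276 after 4 h. *Csf3r* alone made up 52.4% to 79.6% of this sum in each library. The other 9 markers summed to 596 to 1217 in untreated BMDMs, 632 to 1121 after 1 h and 597 to 1031 after 4 h. The part of neutrophils in the change of *C5ar1* was not tested.

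*C3ar1* had 27727, 27214, 30497 and 27305 normalized counts in untreated BMDMs. The values were 15757, 15291, 17718 and 14563 after 1 h, and 15212, 16044, 15904 and 18556 after 4 h. All fenoterol libraries lay far below all untreated ones, and the fenoterol groups overlapped.

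Means ± SD (n = 4) were 28186 ± 1557, 15832 ± 1350 and 16429 ± 1464. *C3ar1* fell 1.78-fold at 1 h (-0.83 ± 0.07, adjusted p = 9.90e-07) and was 1.72-fold below untreated BMDMs at 4 h (-0.78 ± 0.07, adjusted p = 9.66e-07). Between the time points it differed by 0.05 ± 0.07 (adjusted p = 0.613). The promoter stretch with the AP-1 letters printed above is that of *C3ar1*. *C3*, the gene of the protein from which C3a is cut, was at 3158 to 4723 normalized counts and differed by -0.16 ± 0.10 at 1 h (adjusted p = 0.292) and -0.16 ± 0.10 at 4 h (adjusted p = 0.214). *Hc*, which encodes complement component C5, had 0 counts in every library.

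The formyl peptide receptors were near the lower limit of these libraries. Fpr1 and Fpr2 guide phagocytes to formylated peptides of bacteria and mitochondria, and Fpr2 also binds annexin A1 and serum amyloid A. *Fpr1* (chr17:17876471-17883940, minus strand) and *Fpr2* (chr17:17887824-17893952, plus strand) are neighbours.

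*Fpr1* had 36.3, 29.5, 51.1 and 17.2 normalized counts in untreated BMDMs of mice 1 to 4. After 1 h it had 14.4, 38.3, 30.4 and 10.2, and after 4 h 79.2, 37.5, 25.0 and 52.2. All 3 groups overlapped and the mice did not move alike. The log2 differences were -0.54 ± 0.45 at 1 h (adjusted p = 0.474) and 0.51 ± 0.42 at 4 h (adjusted p = 0.364). With each library left out in turn, the 1 h difference of *Fpr1* lay between -0.87 and -0.26 and its 4 h difference between 0.19 and 0.78. Between 1 h and 4 h the difference was 1.06 ± 0.44 (adjusted p = 0.0714), which passed with the mouse as a block (1.09, adjusted p = 0.0334), although only 2 of the 4 mice had more at 4 h.

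*Fpr2* had 31.1, 28.1, 61.7 and 30.1 normalized counts in untreated BMDMs. It had 34.9, 51.8, 40.2 and 19.5 after 1 h, and 37.5, 38.6, 31.4 and 34.3 after 4 h. The groups overlapped, and the untreated library of mouse 3 stood apart from its group. The log2 differences were -0.06 ± 0.30 at 1 h (adjusted p = 0.929), -0.11 ± 0.30 at 4 h (adjusted p = 0.821) and -0.04 ± 0.30 between the time points (adjusted p = 0.931). These differences were smaller than their standard errors.

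*Fpr2* is uncertain for a further reason: 31.5% of its stretches of 50 bases, the read length, also occur in *Fpr1*, *Fpr3* or *Gm5966*, and 3.70% of its exons overlap those of *Fpr3*. *Anxa1*, which encodes annexin A1, fell by 0.50 ± 0.11 at 4 h (adjusted p = 0.00244), from 15371 ± 1875 to 10880 ± 1321 normalized counts (SD, n = 4). *Saa3*, a serum amyloid A gene, was higher by 2.92 ± 0.89 at 4 h (adjusted p = 0.0173), but its counts in mice 1 to 4 were 1442, 25.0, 74.0 and 305. Without the library of mouse 1 the difference was 1.19 (adjusted p = 0.162), and with limma-voom it was 1.65 (adjusted p = 0.298).

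Levels of different genes were compared as normalized counts per kilobase of exon. In untreated BMDMs *C3ar1* was the most abundant of the 9 receptors, at 6547 ± 362 (SD, n = 4), followed by *C5ar1* at 4285 ± 252 and *Cxcr4* at 2710 ± 292. These 3 did not overlap with each other. *Ccr2*, at 313 ± 30.8, and *Ccr1*, at 267 ± 60.3, overlapped, as did *Ccr1* and *Ccrl2*, at 191 ± 10.4. *Cx3cr1* followed at 65.0 ± 14.2, and *Fpr2* and *Fpr1* came last and overlapped at 29.1 ± 12.3 and 25.3 ± 10.7.

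**Figure D3:**
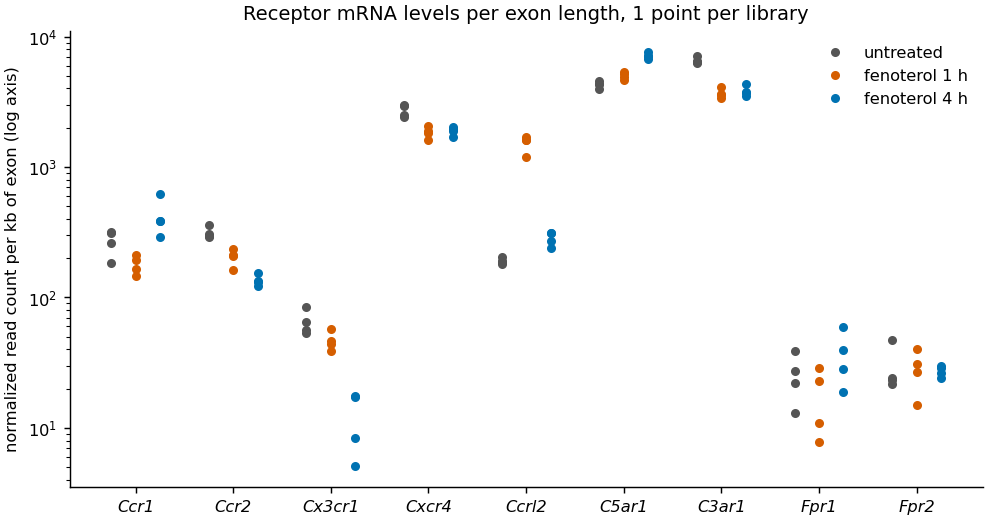
Normalized read count per kilobase of exon (log axis) of the 9 receptors in every library, by group. *C5ar1* and *C3ar1* exchange the first place after fenoterol, *Ccrl2* comes close to *Cxcr4* at 1 h, and *Cx3cr1* goes from seventh to last at 4 h.

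As the plot of levels per exon length shows, the order changed with fenoterol. After 1 h *C5ar1*, at 5013 ± 302, lay above *C3ar1*, at 3678 ± 314, with no overlap. *Ccrl2*, at 1524 ± 223, reached the range of *Cxcr4*, at 1842 ± 182. After 4 h *C5ar1* was at 7176 ± 341 and *C3ar1* at 3816 ± 340 per kilobase. *Ccr1*, at 418 ± 140, then overlapped with *Ccrl2*, at 284 ± 34.6, and both stood above *Ccr2*, at 136 ± 13.1. *Cx3cr1* came last at 12.1 ± 6.35, below *Fpr1* at 36.6 ± 17.6 and *Fpr2* at 27.4 ± 2.50.

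Expressed as shares of the sum of the 9 receptors per kilobase, *C3ar1* made up a median of 45.4% in untreated BMDMs, 29.4% after 1 h and 26.7% after 4 h. *C5ar1* went from a median of 29.4% to 40.4% and 52.0%. The share of *Ccrl2* was 1.33%, 12.4% and 2.10%. A share can move because another receptor moves, so these values add nothing to the tests of single genes.

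Of the 9 receptor genes, 4 lie on chromosome 9, and *Ccr1* and *Ccr2* lie there in a tight cluster of CC chemokine receptors. Of the 10 chromosome 9 receptor genes listed, 7 were tested. At 4 h the 2 that were higher were *Ccr1* and *Ccrl2*, and the other 5 were lower, with a median of -1.20 over the 7, beside 19.7% higher and 20.4% lower among all genes tested. At 1 h 1 was higher, 2 were lower and 4 did not pass, beside 20.1% of all genes called in either direction. The 4 receptors described above are among these 7.

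**Figure D4:**
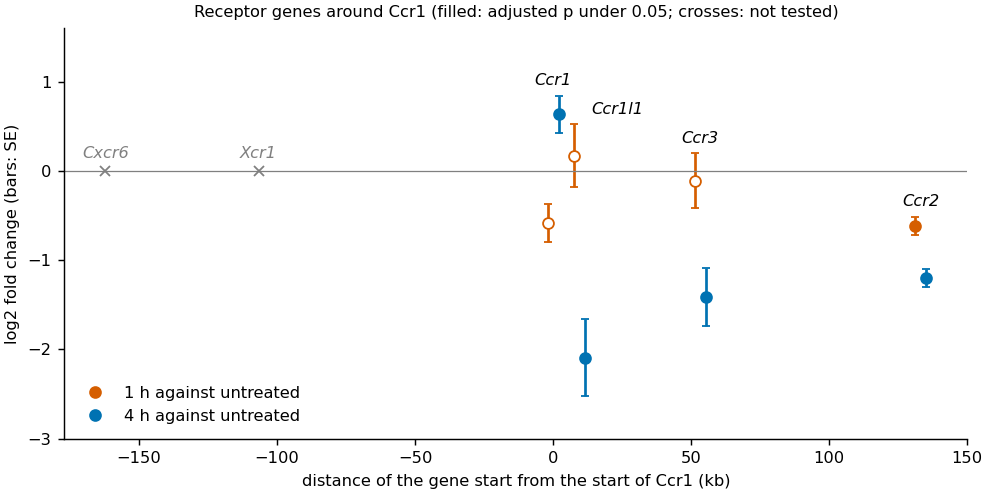
Log2 fold change at 1 h and 4 h of receptor genes around *Ccr1*, by the distance of each gene start from that of *Ccr1* in kilobases, with bars for the standard error, filled points for an adjusted p under 0.05 and crosses for genes not tested. At 4 h *Ccr1* is above 0 and the other 3 tested genes shown are below 0.

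The plot around *Ccr1* holds 3 other tested genes, *Ccr2* among them, whose start is 133 kb away. *Ccr1l1*, a close relative of *Ccr1* whose start is 9.72 kb away, fell by 2.09 ± 0.44 at 4 h (adjusted p = 0.00139), at means of 17.2 and 3.82 normalized counts. It was named after its values were seen, as its counts are below the minimum set for naming genes. *Ccr3*, the eotaxin receptor, 53.3 kb away, fell by 1.41 ± 0.32 at 4 h (adjusted p = 0.0029).

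Of 34 other chemoattractant receptors, 12 were tested. At 1 h 0 had risen by edgeR, DESeq2 or limma-voom, 0 were higher at an unadjusted p under 0.05, and 2 had fallen, *Ptafr* among them, which is near the 20.1% of all genes called in either direction. At 4 h 1 was higher, 7 were lower and 4 did not pass, with a median of -0.39, beside 19.7% of all genes higher and 20.4% lower. *Ptafr*, the receptor of platelet-activating factor, changed by -1.31 ± 0.05 at 1 h (adjusted p = 7.49e-11) and by -1.25 ± 0.05 at 4 h (adjusted p = 1.44e-10), from 9600 ± 279 to 3859 ± 211 and 4041 ± 116 normalized counts (SD, n = 4). *Cxcr3*, the receptor of interferon-induced chemokines, fell by 1.46 ± 0.16 at 4 h (adjusted p = 3.82e-06).

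The receptor that was higher at 4 h was *Ltb4r1*, a leukotriene B4 receptor (1.00 ± 0.35, adjusted p = 0.034), named after its values were seen. Its normalized counts were 7.71 to 10.8 in untreated BMDMs and 12.9 to 27.1 at 4 h, and the call was lost in 7 of the fits that left out 1 library of these groups, with DESeq2 (adjusted p = 0.0535) and with no filter on low counts (adjusted p = 0.0729). *C5ar2*, the other C5a receptor, differed by 0.32 ± 0.13 at 4 h (adjusted p = 0.0756), and passed with the mouse as a block (0.33, adjusted p = 0.0254) and with limma-voom (0.37, adjusted p = 0.0229). Without the untreated library of mouse 2 the difference of *C5ar2* was 0.49 (adjusted p = 0.00157), and leaving out each library in turn gave 0.22 to 0.49. Between 1 h and 4 h *C5ar2* rose by 0.53 ± 0.13 (adjusted p = 0.00585).

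**Figure D5:**
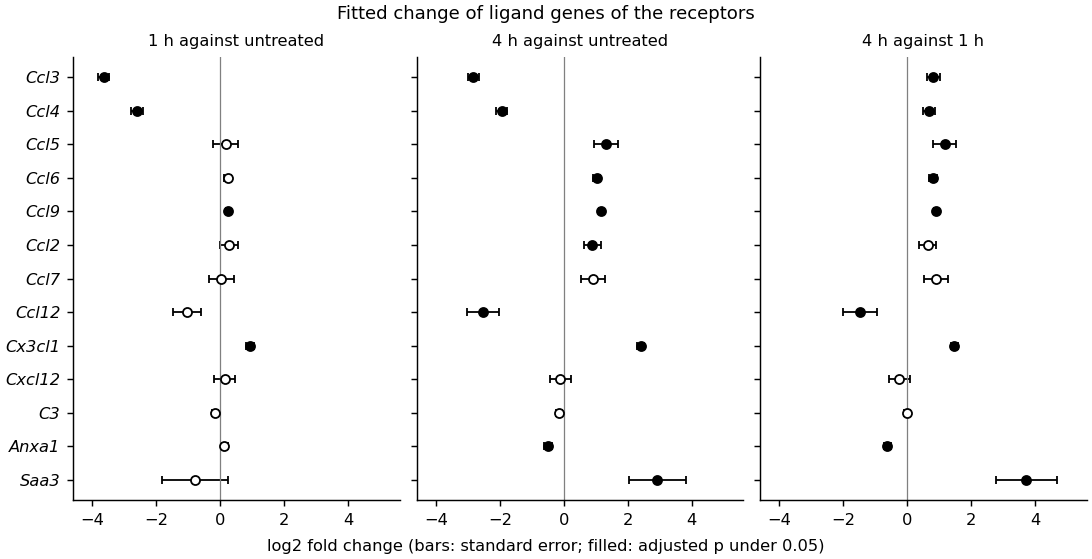
Fitted log2 fold change of 13 ligand genes of the receptors in the 3 comparisons, with bars for the standard error and filled points for an adjusted p under 0.05. *Ccl3* and *Ccl4* fall at 1 h and stay low, while *Cx3cl1*, *Ccl6* and *Ccl9* are higher at 4 h.

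Of 18 ligand genes listed for the receptors, 15 were tested. At 1 h 2 had risen, 2 had fallen and 11 did not pass, near the 20.1% of all genes called in either direction. At 4 h 6 were higher, 4 were lower and 5 did not pass, with a median of 0.37, beside 19.7% of all genes higher and 20.4% lower. The plot of ligand genes shows that those of Ccr1 split. *Ccl3*, an inflammatory chemokine, changed by -3.65 ± 0.18 on the log2 scale at 1 h (adjusted p = 1.51e-09) and by -2.84 ± 0.17 at 4 h (adjusted p = 7.57e-09). Its normalized counts were 644 to 991 in untreated BMDMs, 57.4 to 80.1 after 1 h and 81.3 to 147 after 4 h, with no overlap between the 3 groups.

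*Ccl4*, a related chemokine whose gene lies beside it, fell at both times, with log2 fold changes of -2.61 ± 0.18 and -1.95 ± 0.17 (adjusted p = 5.78e-08 and 4.34e-07). *Ccl9* rose by 0.25 ± 0.06 at 1 h (adjusted p = 0.0113) and by 1.15 ± 0.06 at 4 h (adjusted p = 3.32e-09), to 36315 ± 2034 normalized counts (SD, n = 4). *Ccl6* was higher at 4 h by 1.03 ± 0.11 (adjusted p = 4.39e-06), and *Ccl5* by 1.32 ± 0.38 (adjusted p = 0.0116), with *Ccl5* higher in 3 of 4 mice.

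Of 29 tested genes for signalling and desensitization of these receptors, 3 had risen and 7 had fallen at 1 h, and 4 were higher and 12 lower at 4 h. Among all genes tested, 10.0% rose and 10.1% fell at 1 h, and 19.7% were higher and 20.4% lower at 4 h, so the share of the list that rose was near or below the background, and the share that fell was above it at both times. The list as a whole was not tested. Medians were -0.03 and -0.13. *Rgs1*, which limits signalling by chemokine receptors, rose by 2.91 ± 0.17 at 1 h (adjusted p = 6.46e-09) and was higher by 2.33 ± 0.17 at 4 h (adjusted p = 4.12e-08). *Rgs2* rose by 1.55 ± 0.09 and 0.79 ± 0.08 (adjusted p = 4.35e-09 and 3.01e-06). Among the receptor kinases, *Grk5* was higher at 4 h by 0.90 ± 0.09 (adjusted p = 2.15e-06) and *Grk3* fell by 0.76 ± 0.15 (adjusted p = 0.00101). *Gna15*, a G protein subunit of blood cells that many receptors can use, fell at both times, with log2 fold changes of -0.55 ± 0.10 and -0.93 ± 0.10 (adjusted p = 0.000897 and 2.82e-06).

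Of the 7 macrophage markers, 2 were higher and 4 lower at 4 h, beside 19.7% higher and 20.4% lower among all genes tested. Those that were higher were *Itgam*, an integrin subunit, by 0.42 ± 0.05 (adjusted p = 7.58e-06), and *Fcgr1*, an Fc receptor, by 0.72 ± 0.14 (adjusted p = 0.00073). *Mertk*, a receptor for apoptotic cells, fell by 1.51 ± 0.05 (adjusted p = 5.13e-11). Their summed level was 734486 to 772896 normalized counts in untreated BMDMs and 625757 to 716088 after 4 h. Of the 4 monocyte markers, 1 rose and 3 did not pass at 4 h, near the 19.7% of all genes that were higher. The summed level of this list was 125 to 191 normalized counts in untreated BMDMs and 143 to 213 after 4 h. The part of these lists in the changes of the receptors was not tested.

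The genes whose scaled log2 counts followed each receptor most closely over the 12 libraries were found among all tested genes with a mean of at least 50 normalized counts. These values describe a pattern over 3 groups, and libraries of a mouse are not independent. For *Ccrl2* they were *Spty2d1*, *Btg2* and *Tiparp*, with Pearson's r of 0.992, 0.991 and 0.990. For *C5ar1* they were *Sh3bgrl2*, *Il1r1* and *Arpc3* (0.994, 0.987 and 0.986). *C3ar1* was closest to *5430427O19Rik*, *Zfp715* and *Akap10* (0.984, 0.981 and 0.979).

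*Ccr2* was closest to *Tspyl3*, *Abcd2* and *Kif3c* (0.982, 0.972 and 0.971), and *Cx3cr1* to *Xylb*, *Kdelc2* and *Mpeg1* (0.985, 0.976 and 0.967). For *Cxcr4* the closest were *Dym*, *AU022793* and *Arl11* (0.955, 0.954 and 0.946), and for *Ccr1* they were *Gm43737*, *Slc39a9* and *Bid* (0.953, 0.934 and 0.925). *Fpr1* and *Fpr2* had no gene above 0.856 and 0.808. Among the receptors themselves, *Cxcr4* and *C3ar1* were the most alike, with r of 0.899, and *Cx3cr1* and *C5ar1* the most opposed, with r of -0.932.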

How the data were processed

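RNA of BMDMs was measured in 12 libraries, 3 groups of 4 mice. The authors aligned 50-base single-end reads to GRCm38 using TopHat 2.0.11, counted them per gene with HTSeq-count 0.8.0, and deposited raw counts, which are not normalized. The strand option and the annotation release are not given in the sources used here. Symbols and positions came from GENCODE M21, which matched 53274 of 53379 genes. The 105 others held 0.0046% of the counts.

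Counts were tested with edgeR 4.0.16 in R 4.3.3 (filterByExpr, TMM scaling, quasi-likelihood test, 1 mean per group, no covariate), with Benjamini-Hochberg adjustment over all genes tested and a threshold of 0.05. The study used vsn and limma, and the paper names no covariate. For normalized counts, each library was brought to the mean total with TMM factors of 0.953 to 1.04. SE is that of the log2 fold change. Total counts were 14580533 to 24153284 per library. The spread between libraries of a group exceeded counting error, so for well-covered genes it limits the precision more than depth does. With 200 genes changed in simulated counts at 1 h (12102 genes tested), the edgeR test recovered 176 with 3 false calls. The simulation set the same spread between libraries for every gene and placed no change in genes of low count. Recovery for genes of wider spread, lower count or smaller change was not measured.

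Libraries of a number come from the same mouse by their titles: deviations from group means correlated at r of 0.290 to 0.561 within mice (12 pairs) and -0.304 to 0.0912 between mice (36 pairs). The mouse as a replicate block was therefore fitted too. Other alternatives were DESeq2 1.42.0, limma-voom (limma 3.58.1), RLE factors, library size only, no filter, a mean count of at least 50, only the 2 groups compared, a threshold of 0.01, and each library left out.

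All 9 receptors are named. From other lists at most the 3 largest rises and falls past the threshold with a mean of at least 50 normalized counts are named, with tested ligands beside their receptor and 3 genes of like pattern per receptor. Results of some listed genes are not reported here. The receptors, lists and tests were chosen with earlier results of these data known. Promoter sequences are from RefSeq (GRCm38.p6). Figures were drawn with matplotlib 3.10.9 in Python 3.11.15.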

Additional observations from a re-analysis of the deposited data

Results flagged for a closer look

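In each group of 4 libraries, the gap between the highest or lowest library and its nearest neighbour was set against the whole range, for the 9 receptors and 29 other named genes. Chance flags about 1 in 20 groups, or 5.70 of the 114 groups tested, and 5 exceeded Dixon's critical value. *C3ar1* in untreated mouse 3 had a ratio of 0.844 (30497 normalized counts, others 27214 to 27727). *Fpr2* in the same library had 0.910 (61.7, others 28.1 to 31.1). *Ccr3* in mouse 2 at 4 h had 0.864 (68.8, others 43.8 to 47.2), and *Ltb4r1* in mouse 2 at 1 h had 0.830 (19.1, others 7.19 to 9.22). *Itgam* in untreated mouse 2 had 0.848 (9460, others 8962 to 9038).

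Levels after 1 h and after 4 h of fenoterol were compared by the test of 4 h against 1 h. Both times are set against the same untreated libraries, for which no time is given. A difference between the times therefore cannot be told apart from time in culture. The genes below passed this test. Among the receptors, this held for *Ccr1* (1.22), *Ccr2* (-0.58), *Cx3cr1* (-1.92), *Ccrl2* (-2.43) and *C5ar1* (0.52), as log2 fold changes. Among other receptors it held for *Cxcr3* (-1.10), *Ccr3* (-1.30), *C5ar2* (0.53) and *Ccr1l1* (-2.26).

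Among the ligand genes the difference was 0.81 for *Ccl3*, 0.66 for *Ccl4*, 1.16 for *Ccl5*, 0.80 for *Ccl6*, 0.90 for *Ccl9*, -1.48 for *Ccl12*, 1.47 for *Cx3cl1*, 3.72 for *Saa3* and -0.63 for *Anxa1*. Among the signalling genes it was -0.58 for *Rgs1*, -0.76 for *Rgs2*, -0.38 for *Gna15*, 0.94 for *Grk5* and -0.91 for *Grk3*. It was also -4.13 for *Nr4a1*, -0.78 for *Csf3r*, -1.32 for *Mertk*, 0.34 for *Itgam* and 0.70 for *Fcgr1*. The calls of *Ccl4*, *Ccl5* and *Saa3* were lost with limma-voom, with adjusted p-values of 0.0503, 0.0586 and 0.201. That of *Ccl5* was also lost without mouse 1 or 4 at 1 h or mouse 1 or 4 at 4 h (0.83 to 1.03, adjusted p of 0.0686 to 0.0954). The difference of *Saa3* was 1.97 without mouse 1 at 4 h (adjusted p = 0.0328). The call of *Ccl12* was lost without mouse 1, 2 or 3 at 1 h or mouse 1, 2 or 4 at 4 h (adjusted p of 0.0508 to 0.112), and its difference was -2.20 without mouse 3 at 4 h (adjusted p = 0.00832).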

How the results depend on the processing

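The counts of receptors past the threshold stayed within 1.5 times of 5 at 1 h, 7 at 4 h and 5 between the times under all alternatives. With the mouse as a replicate block they were 6, 7 and 6, since *Ccr1* at 1 h and *Fpr1* between the times were added. No other call of a receptor changed under the block. For single receptors, 426 of 453 alternative values kept direction and call, 6 lost the call, 11 gained it and 10 changed sign. For the other named genes, whose alternatives were chosen after seeing the data, 1029 of 1078 did, 39 lost the call, 7 gained it and 3 changed sign.

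The sign changed only where no difference had passed. For *Fpr2*, leaving out single libraries gave -0.27 to 0.29 at 1 h, -0.21 to 0.23 at 4 h and -0.25 to 0.16 between the times, and the last was 0.034 with limma-voom and 0.050 with library size only. Between the times, leave-one-out values were -0.028 to 0.080 for *Cxcr4* and -0.0099 to 0.095 for *C3ar1*. *Cxcl12* gave -0.067 to 0.30 at 1 h and -0.35 to 0.070 at 4 h. *Fpr1* between the times also passed with DESeq2 (adjusted p = 0.0463), library size only (0.0460), no filter (0.0356), without mouse 2 at 1 h (0.0366) and without mouse 3 at 4 h (0.0375). *Ccr1* at 1 h also passed with library size only (0.0404), no filter (0.0142), only the 2 groups (0.0311) and without untreated mouse 2 (0.0307). At a threshold of 0.01, *C5ar1* at 1 h and *Ccr1* at 4 h were not called. *Fpr1* and *Fpr2* had 10 to 76 counts per library, and how far low counts limited their calls was not tested.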
